A study of Mus musculus with 20 samples.

Results

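The 10 mice described here differed in the form of vitamin E they ate. In the α-tocopherol group, 5 mice received 1000 mg/kg α-tocopherol. In the mixture group, 5 mice received 500 mg/kg α-tocopherol together with 500 mg/kg γ-tocopherol. They were chosen by their labels alone and make up 10 of the 20 mice of the study. Both diets began at 15 months of age, and gene expression in the neocortex was measured at 30 months. All mice were male B6C3F1 animals, a first-generation hybrid of B6 and C3H parents, were housed singly and had 1 array each. Of the other 10 mice, 5 young controls (5 months) and 5 old controls (30 months) ate the control diet. They serve here as reference values. Because the mixture held less α-tocopherol as well as added γ-tocopherol, the lower dose and the second tocopherol cannot be told apart. No group received γ-tocopherol alone or α-tocopherol at 500 mg/kg alone.

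Vitamin E is the main lipid-soluble antioxidant of cell membranes and stops the chain of lipid peroxidation. α-Tocopherol is the form that the liver's tocopherol transfer protein, Ttpa, retains and that brain tissue mostly contains. In γ-tocopherol a methyl group on the ring of α-tocopherol is missing. It is common in plant oils, is broken down faster, and can trap reactive nitrogen species. In the brain, tocopherols travel with apolipoprotein E particles and enter cells through lipoprotein receptors.

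The arrays were oligonucleotide microarrays that give a signal intensity for each probe set, a group of short probes against 1 transcript end. Each array had been scaled by the submitters to a trimmed mean signal of 1000, so a shift of all messenger RNA in 1 direction cannot be seen. Differences are given as mixture minus α-tocopherol on the log2(signal + 16) scale, which understates the change of dim genes. Group signals quoted are back-transformed means of these values. The 22 pan-neuronal genes measured, which are not particular to neocortex, had a median signal of 15660. The 9 upper layer neuron markers were at 1977, the 15 striatal markers at 2637 and the 9 hippocampal markers at 974. These levels do not by themselves identify the tissue as neocortex. In bulk tissue, fewer cells of a type and less RNA per cell cannot be told apart.

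No gene passed the test between the diets. Of 13351 genes tested, 0 (0%) had a Benjamini-Hochberg adjusted p under 0.05 in limma, and the lowest adjusted p was 0.113. At an unadjusted p under 0.05 there were 1163 genes, 8.71% of those tested. Of these, 743 (5.57%) had the lower mean in the mixture and 420 (3.15%) the higher mean. With the medians of the arrays set equal, 1075 had the lower mean in the mixture and 148 the higher mean. The 5 mice of each diet did not overlap for 115 genes with lower mixture signals (0.861%) and for 49 with higher mixture signals (0.367%). Differences were small. The median absolute difference was 0.09 on the log2 scale against a median standard error (SE) of 0.11 (n = 5 per group). The 95% interval excluded differences of 1.5-fold or more in either direction for 87.3% of genes and of 2-fold or more for 98.1%. Means differed by over 1.5-fold for 82 genes and by over 2-fold for 9.

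The count of 0 turned on 1 mouse. With α-tocopherol mouse 5 left out, 100 genes were called, 91 of them with lower mixture means, and 69 of the 100 had a mean log2 signal above 14. None was called with any other single mouse left out. With the replicate number as a block 1 gene was called, the muscle and brain gene Myoz1. The count was 0 in 27 of 29 settings run beside the reported one, among them quantile and cyclic loess normalization. Against old controls with the same test, the mixture had 603 called genes (4.52%) and α-tocopherol 0 (0%). These comparisons share the old controls, so the unequal counts do not measure the difference between the diets.

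The brightest genes had lower signals in the mixture than with α-tocopherol. Of 232 genes with a mean log2 signal above 14 (a signal above 16368), 231 had a lower mean in the mixture, with a median difference of -0.24, and 193 had an unadjusted p under 0.05. The median signal of these 232 genes was 26338, 22496, 24548, 24228 and 21473 in α-tocopherol mice 1 to 5. In mixture mice 1 to 5 it was 21245, 20921, 20741, 19075 and 19408. The groups did not overlap, and α-tocopherol mouse 5 lay nearest to the mixture. Young controls spanned 20160.2 to 21705 and old controls 22650 to 26787, so the mixture mice lay near the young range and α-tocopherol mice mostly within the old range. The log2 limit of 14 was chosen after the values were seen.

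The difference changed with brightness over the whole range. Its median was 0.05 in the 829 genes below log2 8, 0.01 in the 2952 genes from log2 10 to 11, -0.09 in the 642 from 13 to 14, -0.19 in the 131 from 14 to 14.5 and -0.28 in the 101 above 14.5. The share with an unadjusted p under 0.05 went from 4.95% in the dimmest bin to 96.0% in the brightest. The same bins had medians of -0.16 at the dim end and 0.30 at the bright end in old minus young controls, a contrast with no array in common. Quantile normalization, which gives every array the same distribution of signals, brought the median of the brightest bin to 0.01, and cyclic loess brought it to -0.10. Quantile normalization takes out a fall shared by the brightest genes by construction, whatever its source. What it leaves of a bright gene therefore does not show whether the deposited fall was real. From log2 10 to 11 it moved the median only from 0.01 to -0.02, so dimmer genes keep their differences more easily.

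**Figure D1:**
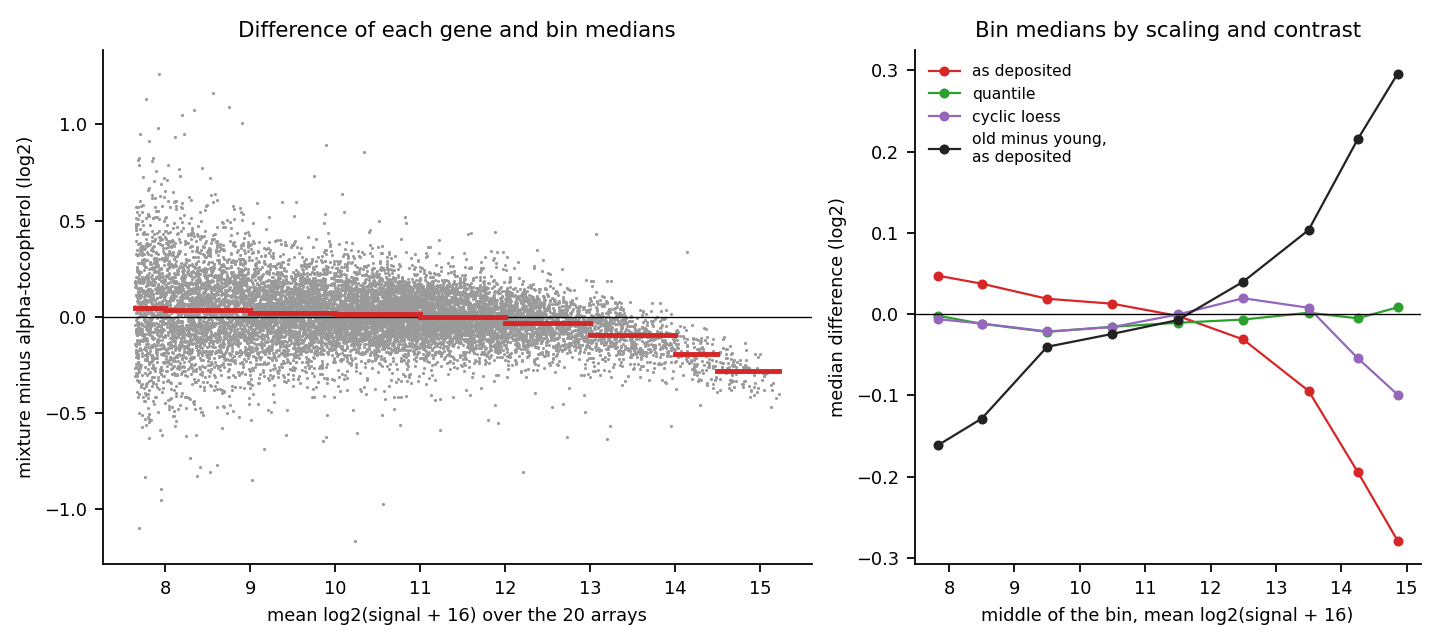
Left: each point is 1 of 13351 genes, with the mean log2(signal + 16) over 20 arrays on the x axis and the difference between diets on the y axis; red bars are bin medians. Right: the bin medians as deposited, after quantile and after cyclic loess normalization, and for old minus young controls; the deposited medians go from 0.05 to -0.28 and the old minus young medians from -0.16 to 0.30.

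Measures taken over each array are given beside this pattern. The 99th percentile of all signals was 16271 to 18532 on α-tocopherol arrays and 14593 to 15931 on mixture arrays, without overlap (exact two-sided permutation test, n = 5 each, p = 0.00794, the smallest this design allows; 0.0635 adjusted over 8 array measures). The P1 cre control, an RNA of a bacterial virus added to each hybridisation and absent from mice, had a mean signal of 33263 ± 6249 on α-tocopherol and 24635 ± 2103 on mixture arrays (SD, n = 5; exact permutation test, p = 0.0317, adjusted 0.127). Its highest mixture value (26632) overlapped the lowest α-tocopherol value (26229). The 3' to 5' ratio of β-actin, a measure of RNA integrity, was 1.67 ± 0.39 and 1.43 ± 0.14 (exact permutation test, p = 0.206, adjusted 0.275). The 18S ribosomal RNA control, which reflects ribosomal RNA left in the preparation, was 1274 ± 713 and 910.2 ± 161.8 (exact permutation test, p = 0.317 before and after adjustment). With the cre control as a covariate, 514 genes had an unadjusted p under 0.05, and 458 with the 99th percentile. The median difference of the 232 bright genes went from -0.24 to -0.10 with the cre control and to -0.0048 with the 99th percentile. The 99th percentile is itself a signal level of the brightest probe sets, so it measures the bright genes again. Its difference between the diets is not a separate observation, and as a covariate it takes out the difference of bright genes by construction. Both covariates were chosen after the data were seen. The part of these array measures in the differences of bright genes was not tested further.

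**Figure D2:**
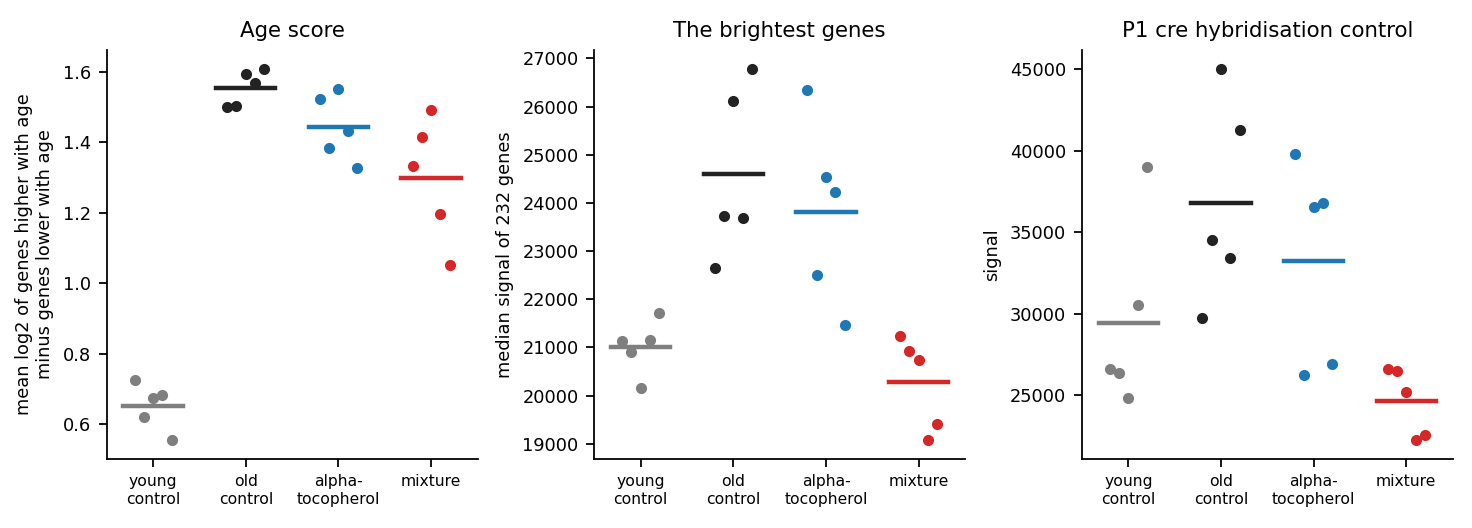
Each point is 1 mouse and each line the mean of 5. Left, the age score in log2 units; middle, the median signal of the 232 brightest genes; right, the signal of the P1 cre control. Mixture mice had age scores of 1.05 to 1.49 against 1.33 to 1.55 with α-tocopherol, and their signals of bright genes (19075 to 21245) lay below those of all 5 α-tocopherol mice.

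The genes named next are the 10 with the smallest p in each direction. They were ranked by p, so their values describe the data and none is a called change. Among the 10 with lower mixture means, 9 were bright, with mixture signals of 9578 to 25570. Norad, a long non-coding RNA that binds Pumilio proteins and guards genome stability, had signals of 33311, 30403, 32709, 31124 and 28523 with α-tocopherol. With the mixture its signals were 26427, 24239, 24902, 24678 and 23578. The groups did not overlap, and the difference was -0.33 ± 0.06 (SE; limma, adjusted p = 0.113). Quantile normalization left -0.05 and cyclic loess -0.16, and the other Norad probe set, which was dim, had the opposite sign (0.32 ± 0.35 SE).

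Snap25, the synaptic SNARE protein that drives vesicle fusion, had α-tocopherol signals of 40919, 33488, 34067, 32276 and 27709. Its mixture signals were 27692, 25287, 25441, 24494 and 25052. The lowest α-tocopherol mouse lay just above the highest mixture mouse (difference -0.39 ± 0.08 SE, limma adjusted p = 0.113), and both probe sets had the same sign. After quantile normalization the difference of Snap25 was -0.09. Rtn3, a reticulon that shapes the endoplasmic reticulum and inhibits β-secretase (-0.36), Ywhae, a 14-3-3 adaptor protein (-0.34), the translation factor Eif5a (-0.33) and Fbxl16 (-0.33) lay between -0.06 and -0.11 after quantile normalization. These genes had lower signals in mixture mice as deposited. Little difference was left once the arrays had the same distribution, a scaling that takes out a shared fall of bright genes by construction.

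Some lower genes kept more of their difference. Mdh2, the mitochondrial malate dehydrogenase of the citric acid cycle, had α-tocopherol signals of 28405, 23779, 20144, 22934 and 21079.8. Its mixture signals were 18790.1, 16577, 19476, 16528 and 13341, all below the α-tocopherol range. The difference was -0.46 ± 0.09 SE as deposited (limma adjusted p = 0.113) and -0.27 after quantile normalization. The other Mdh2 probe set had the same sign and a smaller difference (-0.28 ± 0.09 SE). Smim13, a small membrane protein of little known function, was at -0.35 as deposited and -0.27 after quantile normalization. Rpl11, a ribosomal protein that also restrains the p53 inhibitor Mdm2, was at -0.34 and -0.20.

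Setd4, a SET-domain methyltransferase, was the dim member of the lower genes. Its signals were 862, 693, 647, 748 and 734 with α-tocopherol. With the mixture they were 554, 554, 517, 474 and 315, and the groups did not overlap. The difference was -0.61 ± 0.13 SE (95% interval -0.89 to -0.34; limma adjusted p = 0.113), a 1.53-fold lower mean, and it was -0.65 after quantile normalization. The 2 other Setd4 probe sets had differences of -0.26 ± 0.17 and 0.15 ± 0.16 (SE), so the gene's probe sets disagreed.

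The 10 genes with the smallest p and higher mixture means were of low to middle brightness, with mixture signals of 581 to 4783, and their differences kept their size after quantile and cyclic loess normalization. Kcnd3 encodes Kv4.3, a channel of the fast transient potassium current of neurons. Its signals were 3875, 3816, 3893, 3667 and 3678 with α-tocopherol and 4769, 4849.9, 4140.5, 4711 and 5545 with the mixture. All 5 mixture mice also lay above the highest old (3837) and young (3606) control (difference 0.34 ± 0.07 SE, limma adjusted p = 0.113; 0.35 after quantile normalization). The other Kcnd3 probe sets were dim, with differences of -0.04 ± 0.20 and 0.16 ± 0.21 (SE).

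Pfkfb3 makes fructose 2,6-bisphosphate, the activator of glycolysis, and is held low in neurons. Its α-tocopherol signals were 1138, 984, 590.1, 734 and 854. Old controls spanned 811 to 950.0, with α-tocopherol mice on both sides of that range. Its mixture signals were 1525, 1090.4, 1213, 1481 and 1311, of which 4 lay within the young control range of 1169.7 to 1612. The diets overlapped by 1 mouse, and the difference was 0.64 ± 0.14 SE (1.56-fold, limma adjusted p = 0.113), 0.62 after quantile normalization.

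Myoz1, a calcineurin-binding protein of the sarcomere that is also transcribed in cortex, had the largest difference among the genes named here for a higher mean. Its signals were 222, 190.2, 326, 352 and 358 with α-tocopherol and 553, 493, 647, 629 and 594 with the mixture, without overlap. Old controls spanned 134 to 453 and young controls 676 to 1064, so the mixture mice lay between the old and young ranges. The difference was 1.01 ± 0.24 SE (95% interval 0.52 to 1.495; limma adjusted p = 0.131). It was 0.95 after quantile normalization, and 1 probe set represented the gene.

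Herc3, a ubiquitin ligase, had signals of 2546, 2782, 2556, 2191 and 2506 with α-tocopherol and 3007, 2988, 2916, 3339 and 3594 with the mixture. The mixture mice lay within or above the range of the controls (2786 to 3233) and all 5 α-tocopherol mice below it, a pattern unlike that of Kcnd3 (difference 0.33 ± 0.07 SE, limma adjusted p = 0.113). Snx9, a sorting nexin of endocytosis (0.38), Otof, the calcium sensor otoferlin (0.44), Trak2, an adaptor that carries mitochondria along axons (0.31), Mboat2, a lysophospholipid acyltransferase (0.24), and the kinase Sik2 (0.31) also did not overlap between the diets. Gskip, an inhibitor of glycogen synthase kinase, was at 0.44 with overlap. For Sik2 1 of 3 probe sets and for Gskip 3 of 4 had the direction given, and the Gskip probe set is of a kind prone to cross-hybridisation.

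**Figure D3:**
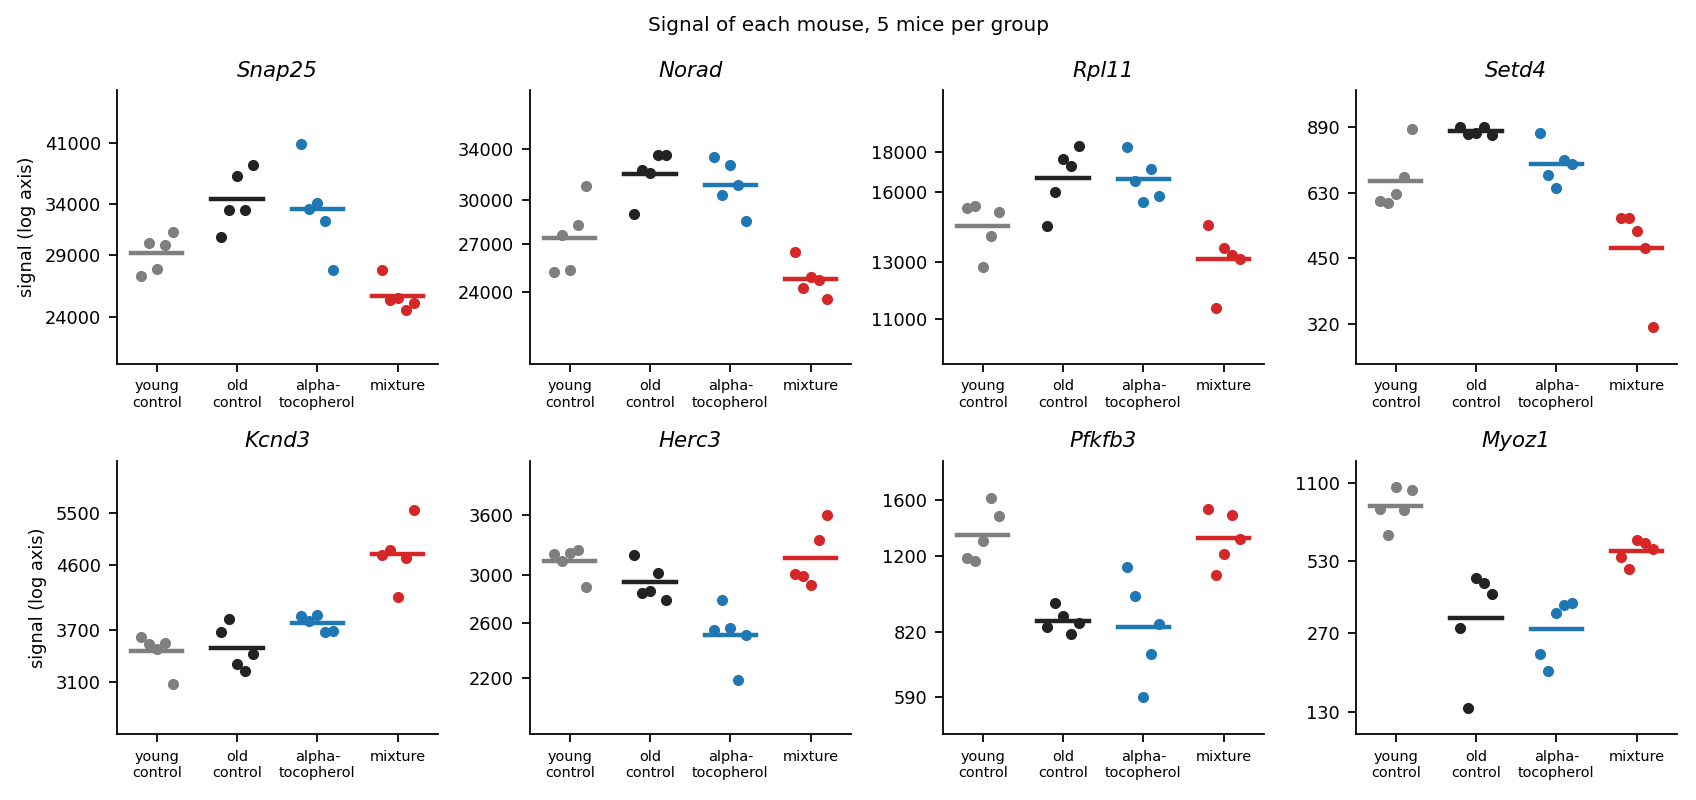
Signal of each mouse on a log axis for 8 of these genes, with 5 mice per group and lines at the back-transformed log2 means. Snap25, Norad, Rpl11 and Setd4 were lower in mixture than in α-tocopherol mice, and Kcnd3, Herc3, Pfkfb3 and Myoz1 higher, with limma adjusted p of 0.113 to 0.131.

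None of the genes listed for carrying, taking up or breaking down vitamin E passed the test between the diets. Of the 26 listed, 21 were tested, 0 were called and 1 had an unadjusted p under 0.05 (8.71% of all genes); the median difference was -0.04, against 0.00 over all genes tested. Ttpa, the tocopherol transfer protein, had low signals of 197, 189, 334, 328 and 342 with α-tocopherol. With the mixture they were 251.5, 257, 254, 271 and 312, inside the α-tocopherol range. The difference of Ttpa was -0.01 ± 0.18 SE with a 95% interval of -0.38 to 0.37 (limma adjusted p = 0.996). Sec14l2, a tocopherol-associated protein, differed by -0.04 (interval -0.21 to 0.13), Scarb1, the scavenger receptor that takes up lipoprotein vitamin E, by 0.13 (-0.12 to 0.37) and Pltp, the phospholipid transfer protein, by -0.18 (-0.40 to 0.04).

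Apoe, the main lipid carrier of the brain, was the member with the unadjusted p under 0.05. Its signals were 34221 to 42301 with α-tocopherol, median 36578, and 28145 to 33950.3 with the mixture, median 30548, without overlap. The difference of Apoe was -0.29 ± 0.08 SE (limma adjusted p = 0.163). Apoe is among the brightest genes, and the difference was 0.06 after quantile normalization, so its sign depended on the scaling. Among the listed members of enzyme families that break down tocopherols, Cyp4f13 was at 0.18 ± 0.17 and Cyp3a11, which was dim, at 0.36 ± 0.24 (SE). Not every member of these families is known to act on tocopherols.

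No antioxidant enzyme passed the test. Of 37 listed, 33 were tested, 0 were called, 3 had an unadjusted p under 0.05 with a lower mixture mean (5.57% of all genes) and 1 with a higher (3.15% of all genes), and the median difference was -0.04. The range was -0.27 to 0.25. Sod1, the cytosolic superoxide dismutase, had signals of 16431 to 21444 with α-tocopherol, median 17837, and 13641 to 16677 with the mixture, median 15832, overlapping by 1 mouse (difference -0.26 ± 0.08 SE, limma adjusted p = 0.298; -0.09 after quantile normalization). Gstp1, a bright glutathione transferase, did not overlap between diets (-0.17 as deposited and -0.02 after quantile normalization). Gstm1, another of these enzymes, was at -0.27 and kept -0.21, on a probe set of a kind prone to cross-hybridisation. Its other probe sets were at -0.13 ± 0.08, -0.07 ± 0.15 and 0.21 ± 0.17 (SE), so they disagreed.

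Txnrd1, the cytosolic thioredoxin reductase, was the member on the higher side. Its signals were 3218, 3105, 3538, 3157 and 3289.9 with α-tocopherol and 3686, 3956, 3692, 3246 and 3582 with the mixture, and the ranges overlapped (0.15 ± 0.06 SE, limma adjusted p = 0.473; 0.15 after quantile normalization). The other Txnrd1 probe set, which was dim, had a larger difference of the same sign (0.51 ± 0.15 SE). Gpx4, the peroxidase that reduces lipid hydroperoxides in membranes, differed by -0.05 (95% interval -0.20 to 0.10) on the probe set used. The other Gpx4 probe set, nearly as bright and of a kind prone to cross-hybridisation, was at -0.41 ± 0.13 SE. Sod2 of mitochondria (-0.08, interval -0.25 to 0.10) and catalase, Cat (-0.11, interval -0.36 to 0.15), had intervals that excluded a 1.5-fold difference. Nqo1 (0.22 ± 0.18), Gclc (0.02 ± 0.07) and Srxn1 (0.10 ± 0.07 SE), targets of the oxidative stress factor Nrf2, and Nfe2l2, which encodes that factor (0.05 ± 0.08), were not called. Of the other Srxn1 probe sets, a pair was at 0.35 ± 0.13 and 0.29 ± 0.12 and the last at -0.06 ± 0.17 (SE).

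Immediate early genes, which neurons switch on within minutes of activity, had lower means in the mixture. Of 28 listed and tested, 22 had a lower mixture mean (49.9% of all genes). At an unadjusted p under 0.05, 11 had a lower mean (5.57% of all genes) and 1 a higher mean (3.15% of all genes). None was called. The list's median difference was -0.20, against 0.00 over all genes tested, and stayed at -0.20 after quantile and -0.17 after cyclic loess normalization. It was -0.33 without mixture mouse 1 and -0.09 without mixture mouse 5. The median signal of its members was 1973, in the range from log2 10 to 11, where quantile normalization moved the median difference of all genes little. This list was singled out after its values were seen.

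Within the list Ccn1, a secreted matrix protein induced by growth factors, had signals of 281, 486, 662, 879 and 563 with α-tocopherol and 307, 311, 338, 226 and 288 with the mixture. All mixture mice were low, as was α-tocopherol mouse 1, so the groups overlapped. The difference was -0.85 ± 0.22 SE (1.80-fold lower; limma adjusted p = 0.153) on a probe set that may cross-hybridise. Fos, the activity marker transcription factor, had signals of 2395, 5801, 4832, 7239 and 5068 with α-tocopherol. With the mixture the signals of Fos were 4836, 2981, 1911, 3111 and 1734. The overlap came from α-tocopherol mouse 1, the lowest of its group, and mixture mouse 1, the highest of its group (difference -0.81 ± 0.24 SE, limma adjusted p = 0.216).

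The other members with larger differences were of the same kind. Junb, a partner of Fos, was at -0.59, the antiproliferative Btg2 at -0.60, the phosphatase Dusp1 at -0.55, the stress factor Atf3 at -0.81 and Npas4, a neuronal activity factor, at -0.63. The dendritic gene Arc was at -0.49, Ier2 at -0.48, the orphan receptor Nr4a1 at -0.40 and Egr1 at -0.30. In Dusp1, Npas4, Arc, Ier2, Nr4a1 and Egr1 α-tocopherol mouse 1 was the lowest of its group and mixture mouse 1 the highest. Jun (0.07), Egr3 (0.05), Homer1 (0.06), Nr4a3 (-0.03) and Klf10 (-0.02) had the smallest differences named here. Probe sets disagreed for some of them. The second Jun probe set was at -0.24 ± 0.09, and 3 of the 5 for Homer1 were at 0.29 ± 0.12, 0.31 ± 0.17 and 0.47 ± 0.18 (SE), the last nearly as bright as the one used. Egr2 was at 0.10 ± 0.25 on the probe set used and at -1.30 ± 0.49 (SE) on its other, slightly dimmer probe set.

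Bdnf, the neurotrophin, was the member on the higher side. Its signals were 1084, 926, 884, 877 and 1061 with α-tocopherol and 1038, 1282, 1241, 1237 and 1405 with the mixture. The 4 highest mixture mice lay above all α-tocopherol mice (difference 0.35 ± 0.10 SE, limma adjusted p = 0.200), and both probe sets had the same sign. In old minus young controls the immediate early list had a median of -0.31. There Fos (-0.78), Junb (-0.75), Btg2 (-1.10) and Bdnf (-0.37) were lower with age and called (limma adjusted p of 0.0238, 0.00744, 0.000867 and 0.0137).

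**Figure D4:**
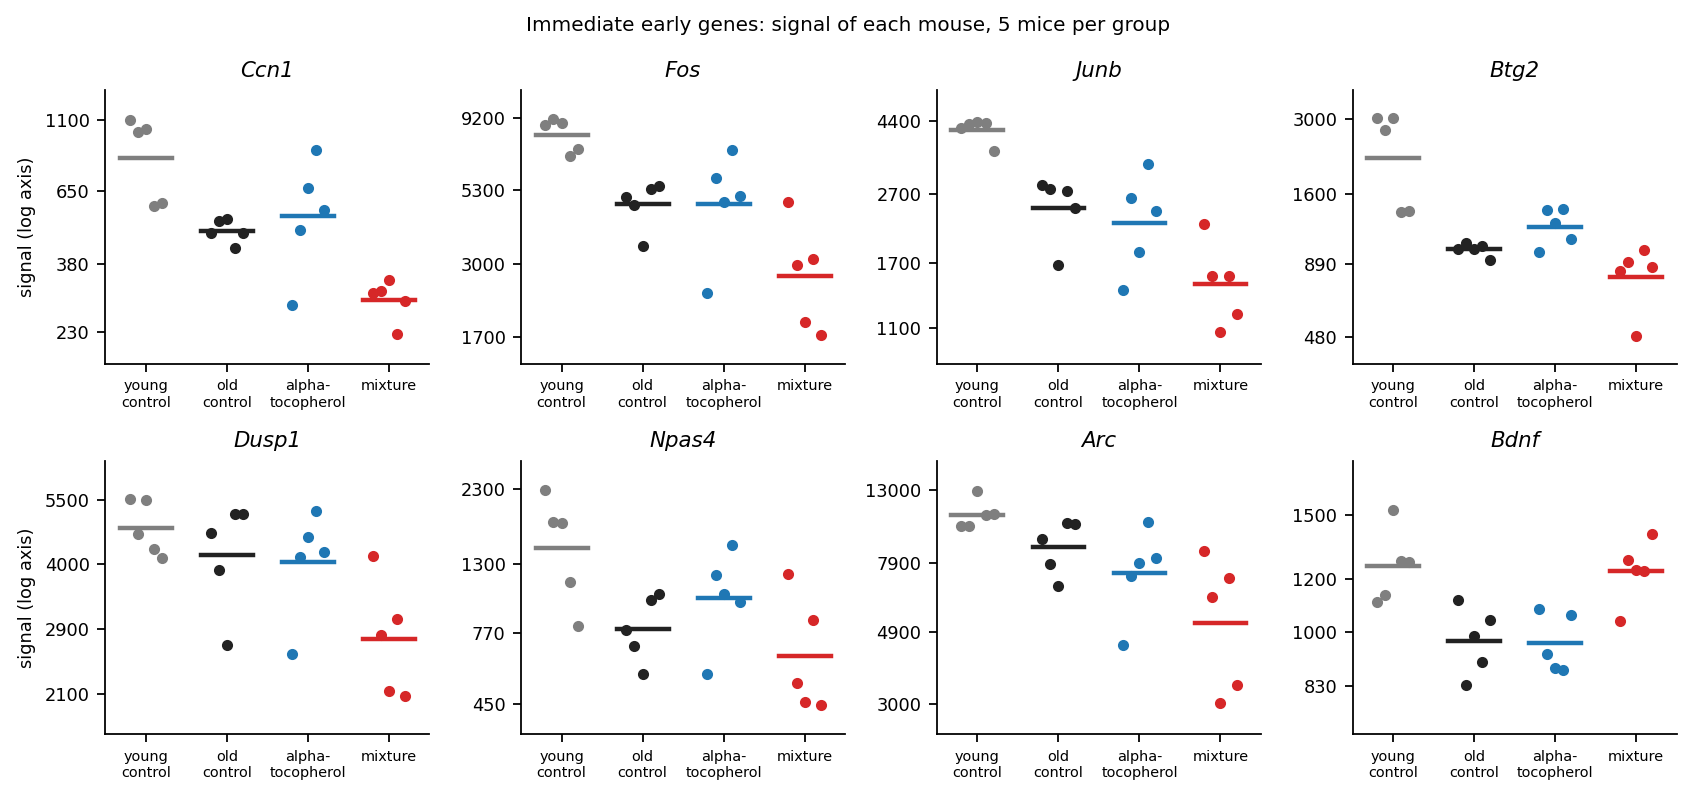
Signal of each mouse on a log axis for 8 immediate early genes, 5 mice per group, with lines at the back-transformed log2 means. Ccn1, Fos, Junb, Btg2, Dusp1, Npas4 and Arc had lower means in mixture than in α-tocopherol mice and Bdnf a higher mean, with overlapping groups.

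Many immediate early promoters carry the cAMP response element (CRE), the site of the activity-dependent factor CREB, so the promoters of the members with large differences are shown. RefSeq (GRCm38.p6) promoter sequences were found for 23 of the 28 genes, some with several starts, 35 promoters in all. The palindromic CRE, TGACGTCA, was found within 250 bases before the start in 2 of these 35 promoters (5.71%) and in 1.55% of 32851 mouse promoters of that length. Its shorter form TGACG, on either strand, which also lies within every full CRE, was found in 21 of the 35 (60%) and in 17.8% of all. The CArG box, the site of serum response factor, was found in 4 of the 35 (11.4%), all of 1 gene, Egr2, and in 1.47% of all. A match is a run of letters, not a site of binding. By gene, 18 of the 23 had the shorter form. These included Nr4a3 and Homer1 (1 of its 2 promoters), whose differences were small, and Bdnf (1 of its 7), which had the opposite difference. Jun, also with a small difference, had none. The relation of the motif to the size or direction of the differences was not tested. The capitals below mark the full CRE in Btg2 and Dusp1 and the shorter form nearest the start in Fos and Ccn1, with 20 bases on each side. They begin 166, 143, 66 and 58 bases before the start.
Btg2, chr1:134079294-134079341, minus strand: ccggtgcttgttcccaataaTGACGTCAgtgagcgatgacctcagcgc
Dusp1, chr17:26508588-26508635, minus strand: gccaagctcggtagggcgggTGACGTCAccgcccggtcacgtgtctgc
Fos, chr12:85473804-85473848, plus strand: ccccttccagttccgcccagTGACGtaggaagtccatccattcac
Ccn1, chr3:145650019-145650063, minus strand: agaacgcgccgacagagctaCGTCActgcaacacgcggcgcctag

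Pan-neuronal, presynaptic, mitochondrial and ribosomal lists had lower medians in the mixture as deposited, and they are made largely of bright genes. Of all genes tested 8.71% had an unadjusted p under 0.05, 5.57% with a lower mixture mean. Among genes of like brightness the share in either direction was 28.2% from log2 13 to 14 and 73.3% from 14 to 14.5. The counts that follow are therefore not read as particular to these lists. No comparison with genes matched for brightness was run. The 22 pan-neuronal genes tested had a median difference of -0.19, with 12 of 22 at an unadjusted p under 0.05 and a lower mean, and Ncdn (-0.28), Nsf (-0.26) and Celf4 (-0.26) beside Snap25. Presynaptic vesicle genes were at -0.15 (13 of 27), among them Stx1a, the syntaxin partner of Snap25 (-0.34), and Syp, synaptophysin (-0.22). After quantile normalization the medians were -0.02 and 0.00, with 2 and 1 members at that level. Markers of single neuron classes were dimmer. Their medians were -0.09 in upper layer markers (1 of 9 lower and 1 higher at an unadjusted p under 0.05), -0.01 in deep layer markers (1 of 11 lower) and -0.03 in GABAergic interneuron markers (0 of 19).

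The subunits of oxidative phosphorylation followed the same course. The median of complex I was -0.12 (10 of 34 lower at an unadjusted p under 0.05), that of complexes II to IV -0.15 (13 of 24) and that of ATP synthase -0.17 (7 of 16). Of all genes 5.57% were lower at that level. In either direction 28.2% of genes from log2 13 to 14 and 73.3% from 14 to 14.5 reached it. Cox4i1, a core subunit of cytochrome oxidase (-0.29), Cox5a (-0.26), Ndufa1 of complex I (-0.23) and Atp5pb of ATP synthase (-0.27) did not overlap between the diets. After quantile normalization the medians were -0.03, -0.01 and 0.01. Glycolysis and citric acid cycle genes were at -0.10, and 0.04 after quantile normalization; Pgk1 was at -0.42 and Aldoa at -0.35 as deposited.

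Cytosolic ribosomal proteins had a median difference of -0.19, with 20 of 34 lower at an unadjusted p under 0.05 (5.57% of all genes). It was -0.05 after quantile normalization, with 2 members lower at that level. Rps29 (-0.40), Rps28 (-0.38) and Rps2 (-0.33) were at -0.06, -0.12 and -0.07 after quantile normalization. Rpl27a was the exception in size. It had 1 tested probe set, with a mean log2 signal of 10.56, against 14.66 to 15.23 for those of Rps28, Rps2 and Rps29. Among α-tocopherol mice its signal was highest in mouse 4 and lowest in mouse 5, as was that of Rpf2 below. Its signals were 2265, 1866, 1908, 5209 and 986 with α-tocopherol and 848, 1155, 1226, 966 and 1195 with the mixture (difference -0.97 ± 0.31 SE, limma adjusted p = 0.267; -1.0 after quantile normalization). The mixture mice lay within the young control range of 543 to 1290.0, and 4 of the 5 α-tocopherol mice were well above it.

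Rpf2, a ribosome assembly factor, had the largest difference among the genes named. Its signals were 1676, 1506, 1375, 3533 and 883 with α-tocopherol and 668, 606, 692, 759 and 849.6 with the mixture, without overlap. The difference was -1.16 ± 0.33 SE (2.24-fold lower, limma adjusted p = 0.194). Old controls spanned 1569 to 5556 and young controls 396 to 1350.1. The 2 other Rpf2 probe sets had differences of 0.11 ± 0.13 and -0.01 ± 0.09 (SE), so the difference was seen on 1 of 3 probe sets.

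Glutamate receptor and postsynaptic genes had a median of -0.13, and -0.06 after quantile normalization. Within them Grik2, a kainate receptor subunit, and Grm2, a presynaptic metabotropic receptor, kept their size. Grik2 had signals of 1196 to 2102 with α-tocopherol and 911 to 1325 with the mixture (-0.51 ± 0.13 SE, limma adjusted p = 0.155; -0.54 after quantile normalization), on 1 of 2 probe sets. Grm2 had signals of 1279 to 1474 and 824 to 1234, without overlap (-0.38 ± 0.11 SE, adjusted p = 0.197; -0.40 after quantile normalization). GABA receptors had a median of -0.01 with none of 10 at an unadjusted p under 0.05 (8.71% of all genes).

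Glial and immune lists were near 0 or slightly higher in the mixture, and none of their members was called. Astrocyte markers had a median of -0.05. At an unadjusted p under 0.05, 4 of 19 had a lower mixture mean (5.57% of all genes). At that level 1, the water channel Aqp4 (0.21), had a higher mean (3.15% of all genes). The 4 were Aldoc, an aldolase (-0.33 ± 0.10 SE), the glutamate transporters Slc1a2 (-0.25 ± 0.07) and Slc1a3 (-0.27 ± 0.11), and Glul, glutamine synthetase (-0.30 ± 0.11; limma adjusted p of 0.179 to 0.474 for the 4). All 4 were bright, and after quantile normalization they were at -0.05, -0.03, -0.15 and -0.13. Each had at least 1 other probe set with a difference above 0. Median differences were -0.02 in myelin genes and -0.02 in oligodendrocyte precursor genes. Microglia markers were at 0.06 with none of 21 at an unadjusted p under 0.05 (8.71% of all genes). Mbp, myelin basic protein and among the brightest genes, was at -0.42 ± 0.10 SE as deposited (limma adjusted p = 0.133) and -0.04 after quantile normalization. Gfap, the astrocyte filament, had signals of 6378, 7237, 8014, 5999.7 and 6629 with α-tocopherol and 7730.4, 7388, 17441, 7227 and 5752 with the mixture. Mixture mouse 3 alone was far above the rest (difference 0.30 ± 0.18 SE, adjusted p = 0.685).

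Complement and disease-associated microglia genes had a median of 0.13 with 17 of 22 (50.1% of all genes) higher in the mixture, and a median of 0.04 without mixture mouse 3. At an unadjusted p under 0.05, 3 members had a lower mean (5.57% of all genes) and 2 a higher mean (3.15% of all genes). The lower ones were the bright genes Fth1, the ferritin heavy chain (-0.33), Clu, clusterin (-0.32), and Apoe, at 0.00, -0.07 and 0.06 after quantile normalization. The higher ones were Gpnmb and Clec7a, the receptor dectin-1 (0.42). Gpnmb, a lysosomal glycoprotein of such cells, had signals of 118, 139.9, 271, 114 and 197 with α-tocopherol and 334, 276, 401, 334 and 251.6 with the mixture. The ranges overlapped slightly (difference 0.92 ± 0.28 SE, limma adjusted p = 0.219). Trem2, their lipid receptor, spanned 70.6 to 684 and 312 to 684 (0.65 ± 0.47 SE, adjusted p = 0.752).

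Genes of tissues next to neocortex varied between mice. Choroid plexus genes had a median difference of 0.13, with 15 of 19 tested. Their median log2 signal per mouse was 8.40 to 9.23 with α-tocopherol and 8.64 to 9.05 with the mixture. Ttr, the plexus transport protein, was at 16214 in α-tocopherol mouse 2 and 34842 to 44416 in the other 4, and at 28306 to 35745 in mixture mice (-0.13 ± 0.37 SE, limma adjusted p = 0.958). Meningeal fibroblast genes had a median of -0.11 with 14 of 19 lower in the mixture (49.9% of all genes). Their per-mouse medians were 9.48 to 9.78 and 9.26 to 9.57. Hippocampal markers were at 0.09 and striatal markers at -0.01. The part of such tissue in the other results was not tested.

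The remaining lists had medians near 0 and no called member. Heat shock proteins had a median of -0.09, and -0.01 after quantile normalization. Hspa1a, the inducible Hsp70, was on the higher side (945 to 1456 with α-tocopherol and 1346 to 1815 with the mixture; 0.37 ± 0.12 SE, limma adjusted p = 0.308), and Hspa8, the constitutive form, was at -0.29. Circadian clock genes had a median of -0.08, with the repressor Ciart at -0.41 ± 0.13 SE. Cholesterol biosynthesis was at -0.06, lysosome genes at 0.00, proteasome subunits at -0.04 and genes of antigen presentation and interferon response at 0.03. Prkcb, the protein kinase C isoform of neurons, did not overlap between the diets (-0.24 ± 0.06 SE, adjusted p = 0.149) and was at -0.06 after quantile normalization.

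**Figure D5:**
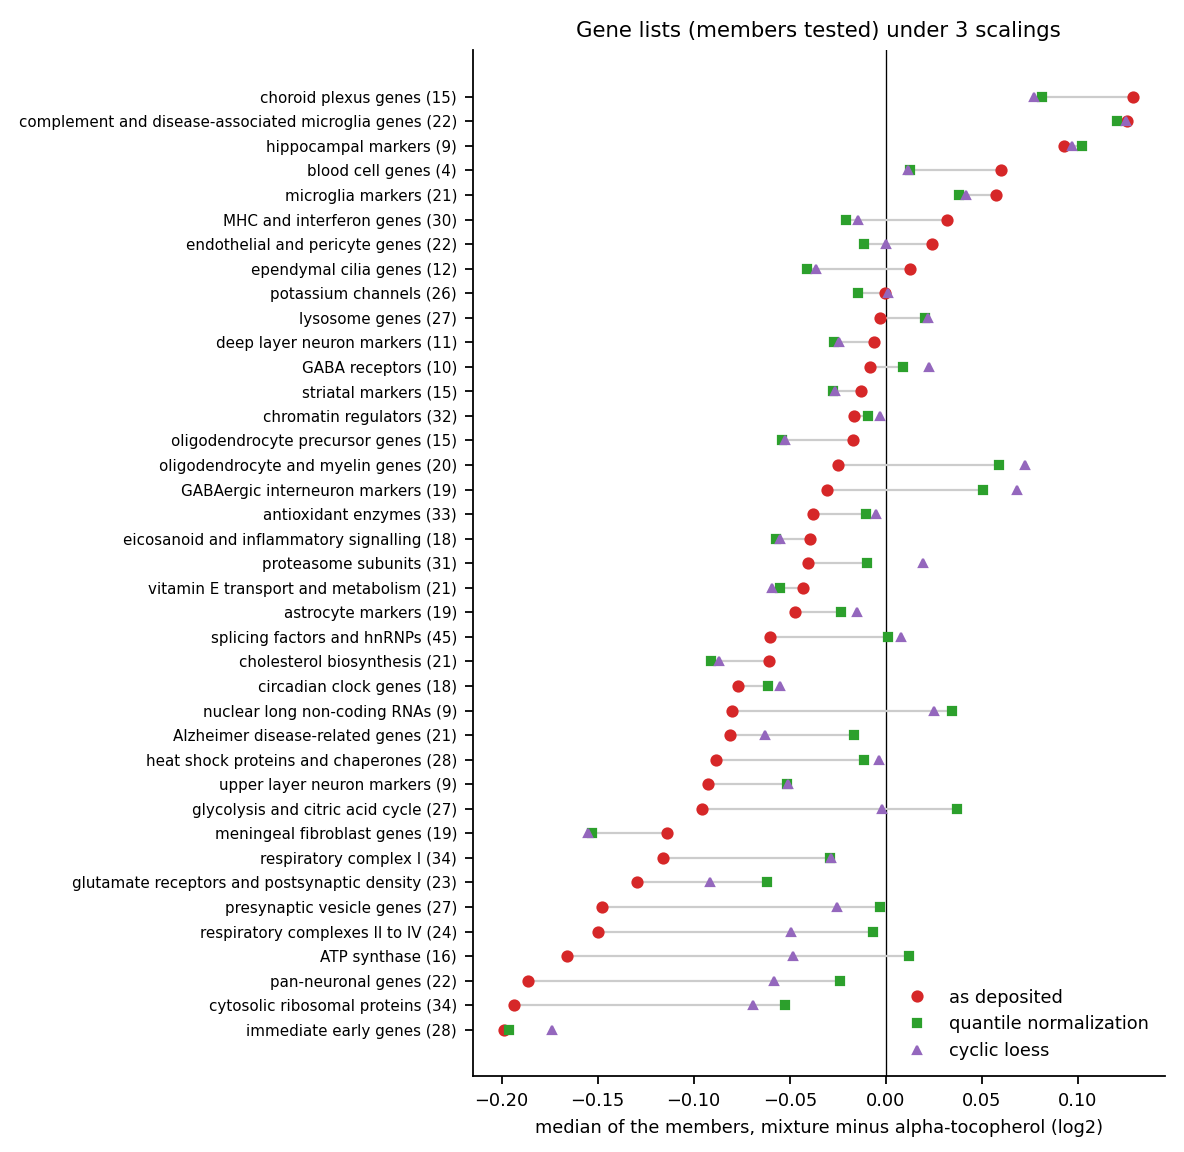
Median difference, mixture minus α-tocopherol, of the tested members of 39 gene lists, as deposited and after quantile and cyclic loess normalization. The pan-neuronal, ATP synthase, presynaptic and ribosomal medians moved from -0.15 to -0.19 as deposited to between -0.05 and 0.01 after quantile normalization, and immediate early genes remained at -0.20.

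Most genes that changed with age had a mixture mean on the young side of the α-tocopherol mean. In old against young controls 1656 genes were higher (12.4%) and 1383 lower (10.4%) at an adjusted p under 0.05. These 10 mice are not the 10 compared here. Of the 1656 genes higher with age, 1236 (74.6%) had a lower mean in the mixture than in α-tocopherol, with a median difference of -0.08. Of the 1383 lower with age, 966 (69.8%) had a higher mean in the mixture, with a median of 0.06. Over all genes tested 49.9% had a lower and 50.1% a higher mean. Genes share arrays and are not independent, so these shares are descriptions. The array measures also differed between the controls. In young and old controls the 99th percentile averaged 15628 and 17606, the P1 cre control 29468.5 and 36809, the β-actin ratio 1.52 and 2.04 and the 18S control 620 and 1648. Each was higher in old than in young controls, and each was higher with α-tocopherol than with the mixture. The part of these measures in the shares was not tested. After quantile normalization the shares were 71.1% and 65.3%, against 53.9% lower and 46.1% higher over all genes. After cyclic loess they were 70.2% and 68.9%, against 52.4% and 47.6%. With array medians set equal they were 81.2% and 60.6%, against 65.0% and 35.0%. The genes called with age were those called under each scaling.

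Across the 13351 genes the difference between diets had a Pearson correlation of -0.25 with the difference between old and young, and -0.20 after quantile normalization. The genes share arrays and brightness. Within bins of brightness the correlation was -0.02 in the dimmest genes and -0.31 to -0.33 from log2 10 to 12. It was -0.42, -0.43 and -0.39 in the 3 bins above log2 13.

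To summarise these genes by mouse, the mean of the 1383 genes lower with age was subtracted from that of the 1656 higher, in log2 units, and called an age score. It was 0.65 ± 0.07 in young and 1.56 ± 0.05 in old controls (SD, n = 5), which the choice of genes sets. α-Tocopherol mice scored 1.52, 1.38, 1.55, 1.43 and 1.33. Mixture mice scored 1.33, 1.41, 1.49, 1.20 and 1.05. The ranges overlapped, with mixture mice 4 and 5 lowest, and the means of 1.44 with α-tocopherol and 1.30 with the mixture lay nearer to old than to young controls. With this score and scaling, mixture mouse 5 alone lay nearer to the young than to the old mean. After quantile normalization the means were 0.14 with α-tocopherol and 0.04 with the mixture, against -0.66 in young and 0.23 in old controls. Mixture mouse 5, at -0.20, then lay slightly nearer to the old mean. A score from the 200 largest age differences each way had means of 1.53 with α-tocopherol and 1.38 with the mixture. Young controls were at 0.01 and old controls at 1.79 on it, and mixture mouse 5, at 1.04, lay nearer to the old mean.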

How the data were processed

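Messenger RNA from 20 neocortices was measured on 20 arrays. The deposited table holds linear signal intensity values per probe set, which the authors made with GCOS, the Affymetrix operating software, per the submitters' processing notes, without a version. Every deposited column had a trimmed mean of 1000 (2% off each end). The steps of background correction and probe summary, not given in the sources used here, stay unknown. The values were used as deposited. The number of arrays limits the precision, and no counts exist.

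From these values log2(signal + 16) was computed. Affymetrix controls (64 probe sets) were left out, and the top 60% of the others by mean over 20 arrays (27022, 23453 with 1 symbol) were kept. Of 45037 non-control probe sets, the platform annotation gave 34945 a single symbol, 932 several and 9160 none; 34741 symbols came from the RefSeq gene table through the gene identifier. The brightest probe set with 1 symbol stood for each of 13351 genes. All 20 arrays were fitted with limma 3.58.1 in R 4.3.3 (lmFit, contrasts, eBayes with an intensity trend), two-sided, with Benjamini-Hochberg adjustment over all genes. The fit was tested on simulated data. Per the labels each mouse had its own array, so p-values measure the spread between mice. Same-numbered mice correlated at -0.12 to 0.12, against -0.23 to 0.090 for mice of unlike number. Numbers 1 (0.092) and 3 (0.117) lay slightly above that range. Numbers were not taken to pair mice, and the fit with the number as a block is given beside the results.

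The members and the 39 gene lists (959 genes, 810 tested) were chosen with earlier results of these data known. The named genes were the 10 with the smallest p in each direction, the 4 with the smallest p of each list, and 18 fixed genes. The full immediate early, vitamin E and antioxidant lists, the brightness bins, the 99th percentile, the count at an unadjusted p and the promoters were added after values were seen. So were 3 of the 29 other settings (the cre control and the 99th percentile as covariates, and leaving out α-tocopherol mouse 1 with mixture mouse 5). Array measures were compared by exact permutation tests over the 252 arrangements.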

Additional observations from a re-analysis of the deposited data

Results flagged for a closer look

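A mouse stood apart from the other 4 of its diet, by Dixon's test at the 95% level, in 21 of 486 sets of 5 values. Chance alone flags about 1 in 20, or about 24 here. No explanation was weighed.

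Among α-tocopherol mice, mouse 1 stood apart for Cd74 (signal 512), Ier2 (377), Gpx3 (1499) and Txnrd2 (305). Mouse 2 stood apart for Ttr (16214), and mouse 3 for Fcrls (918) and Spag6l (329.7). Mouse 4 stood apart for Ms4a1 (104) and Insig1 (2181). Mouse 5 stood apart for Slc1a2 (19645), Psap (30370.3) and Msrb2 (1879.7).

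Among mixture mice, mouse 1 stood apart for Sik2 (3650.5) and Psma7 (4598). Mouse 3 stood apart for Gfap (17441), Btg2 (484) and Cyp4f13 (584), mouse 4 for Jun (2304) and Gclc (2332), and mouse 5 for Setd4 (315) and Arid4b (3042). Without mixture mouse 5 the difference of Setd4 was -0.47 in place of -0.61.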

How the results depend on the processing

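The number of called genes was 0 in 27 of 29 other settings. It was 1 with the replicate block (Myoz1, 1.01, limma adjusted p = 0.0484), and between 0 and 100 when 1 mouse was left out, with 100 without α-tocopherol mouse 5 and 0 without any other single mouse. Genes at an unadjusted p under 0.05 numbered 1163 as reported and 822 to 1442 with 1 mouse left out. They numbered 2266 with each of 27022 probe sets tested on its own, 514 with the cre covariate, 458 with the 99th percentile covariate and 762 without α-tocopherol mouse 1 and mixture mouse 5. With array medians set equal, 1075 of 1223 such genes were lower in the mixture, and this scaling moved the median of all genes by -0.05. With quantile normalization 537 of 850 were lower, against 743 of 1163.

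Of 6762 pairs of a named gene and a setting, 6130 moved by less than 1 SE and 36 changed sign where the reported unadjusted p was under 0.05. The median of a list moved by less than 1 SD of its per-mouse levels in 1038 of 1091 pairs. With the 99th percentile covariate the sign turned for Pcp4 (0.036), Aldoc (0.025), Slc1a3 (0.095), Ndufb11 (0.024), Ndufa1 (0.010), Ndufc2 (0.045), Cox6b1 (0.037), Cox7a2 (0.035), Atp5g3 (0.0096), Pgk1 (0.053), Aldoa (0.010), Gstm1 (0.059), Hmgcs1 (0.047), Lamp1 (0.014), Hspa8 (0.021), Clu (0.056), Rps2 (0.026), Psma6 (0.075), App (0.035) and Aplp1 (0.020). With quantile normalization it turned for Qdpr (0.00058), Cox7a2 (0.056), Atp5g3 (0.011), Atp5b (0.013), Vamp2 (0.021), Apoe (0.064), Psap (0.037), Hspa8 (0.038), Fth1 (0.0036) and Snhg11 (0.11), and with cyclic loess for Snhg11 (0.0034). With the mean over probe sets it turned for Sik2 (-0.0079), Ddx17 (0.023), Srsf1 (0.060) and Kcna2 (0.023), and without probe sets prone to cross-hybridisation for Pgk1 (0.025). The cause was not tested.

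Groups of 5 mice could miss small changes. The median interval reached 0.23 either side of the difference on the log2 scale. The scaling hides shifts of all messenger RNA, dim genes have compressed differences, and probe sets of a gene can disagree. The 99th percentile differs between the diets without overlap, so that covariate also takes up diet differences. For these reasons the count of 0 does not show that the diets act alike. The replicate block changed no other call.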
